A study of Homo sapiens with 2 samples.

Results

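The 41 genes described here encode enzymes and regulators of fatty acid and cholesterol metabolism. They were chosen by gene symbol, for their function, from the 57736 genes of the deposited table, and all 41 were found there. By role they comprise 9 genes of fatty acid synthesis, 3 genes of fatty acid activation, 9 genes of fatty acid oxidation, 16 genes of sterol synthesis and 4 genes of sterol regulation and transport. The EMT library came from A549 lung adenocarcinoma cells, wild type by label and described by the study's design as a VIM RFP line (vimentin with a red fluorescent protein), that were put through epithelial to mesenchymal transition (EMT) with the cytokine TGF-beta. The untreated library came from A549 cells, also wild type by label, without the cytokine, and whether they carried the reporter is not stated. Each group was 1 library, so no difference below has a replicate check, no test of the treatment is possible and no p-value is given. No source used here gives the dose of TGF-beta or its duration.

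Fatty acid synthesis takes place in the cytosol, where citrate is split into acetyl-CoA, carboxylated to malonyl-CoA and built into palmitate, which is then elongated and desaturated. Fatty acid oxidation runs the other way in mitochondria and peroxisomes, after the acid has been activated to its CoA ester and carried across the mitochondrial membrane. Sterol synthesis starts from acetyl-CoA too and passes through mevalonate, farnesyl diphosphate, squalene and lanosterol to cholesterol. Transcription of the synthesis genes is driven by the sterol regulatory element binding proteins (SREBF1 and SREBF2), which INSIG1 holds in the endoplasmic reticulum when sterols are plentiful. A549 cells resemble alveolar type II cells in some respects, and alveolar type II cells make the lipids of lung surfactant.

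The libraries were made with a targeted kit designed to amplify a short segment of each gene, and they were shallow. The EMT library held 597133 rounded counts and the untreated library 674784, with 43.6% and 32.6% of them in the 10 genes with the most counts. Levels are given as CPM, counts scaled to a common library total, with totals adjusted by the trimmed mean of M-values (TMM), and a ratio is the EMT library over the untreated library on the log2 scale. The markers set out for A549 cells summed to 165 counts in the EMT library and 739 in the untreated library. Of 9 tested markers 6 were at least 2-fold lower and 1 higher, beside 26.7% and 22.0% of all tested genes. AKR1B10 had 0 counts in the EMT library against 22, and KRT18 had 0 against 3, too few to be tested. KRT19 was level at 45 against 51, and EPCAM had 7 against 4. The genes set out for the EMT state summed to 108 and 1435 counts, with vimentin (VIM) at 56 counts in the EMT library against 452 in the untreated library, although vimentin is a defining gene of the mesenchymal state that the label names. The fibroblast markers summed to 54 counts in the EMT library and 61 in the untreated library, and the leukocyte markers to 8 and 18. PDGFRB held 48 and 52 of the fibroblast counts, and CD14 held 0 and 10 of the leukocyte counts. Genes for cytosolic ribosomal proteins were lower too, with a median log2 ratio of -3.16 over 76 tested genes, beside 0.01 for all tested genes. The part of these library-wide differences in the results below was not tested.

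The members were thinly counted. Only 3 of the 41 had at least 20 counts in the EMT library (FASN, ACADVL and MVD), and 10 had at least 20 counts in the untreated library. In the EMT library 27 members had 3 counts or fewer, against 13 in the untreated library. STARD4 and NSDHL had 0 counts in both libraries. A count of 0 allows up to 3 counts, which correspond to 5.31 CPM in the EMT library and 4.21 CPM in the untreated library. A member was taken as tested where it had at least 5 CPM in 1 of the libraries, which held for 31 of the 41. The filter lets a gene in through the library where it is high, so the counts of members below are descriptions.

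Of the 31 tested members, 19 were at least 2-fold lower in the EMT library, where 26.7% of all 15401 tested genes were lower. Another 5 were at least 2-fold higher, where 22.0% of all tested genes were higher, and 7 lay between. The exact 95% counting interval lay wholly below equality for 11 members, with 16.8% of all tested genes in that position, and wholly above it for 4 members, with 9.99% of all tested genes there. The 11 were SCD, FADS1, FADS2, ELOVL1, ACLY, HADHA, HADHB, ECHS1, PMVK, FDFT1 and MSMO1, and the 4 were FASN, ACADVL, DHCR7 and EBP, while the intervals of the others took in equality. In RNA from a whole culture, fewer cells that express a gene and less RNA per cell cannot be told apart. The median log2 ratio of the tested members was -1.40, beside 0.01 for all tested genes.

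**Figure D1:**
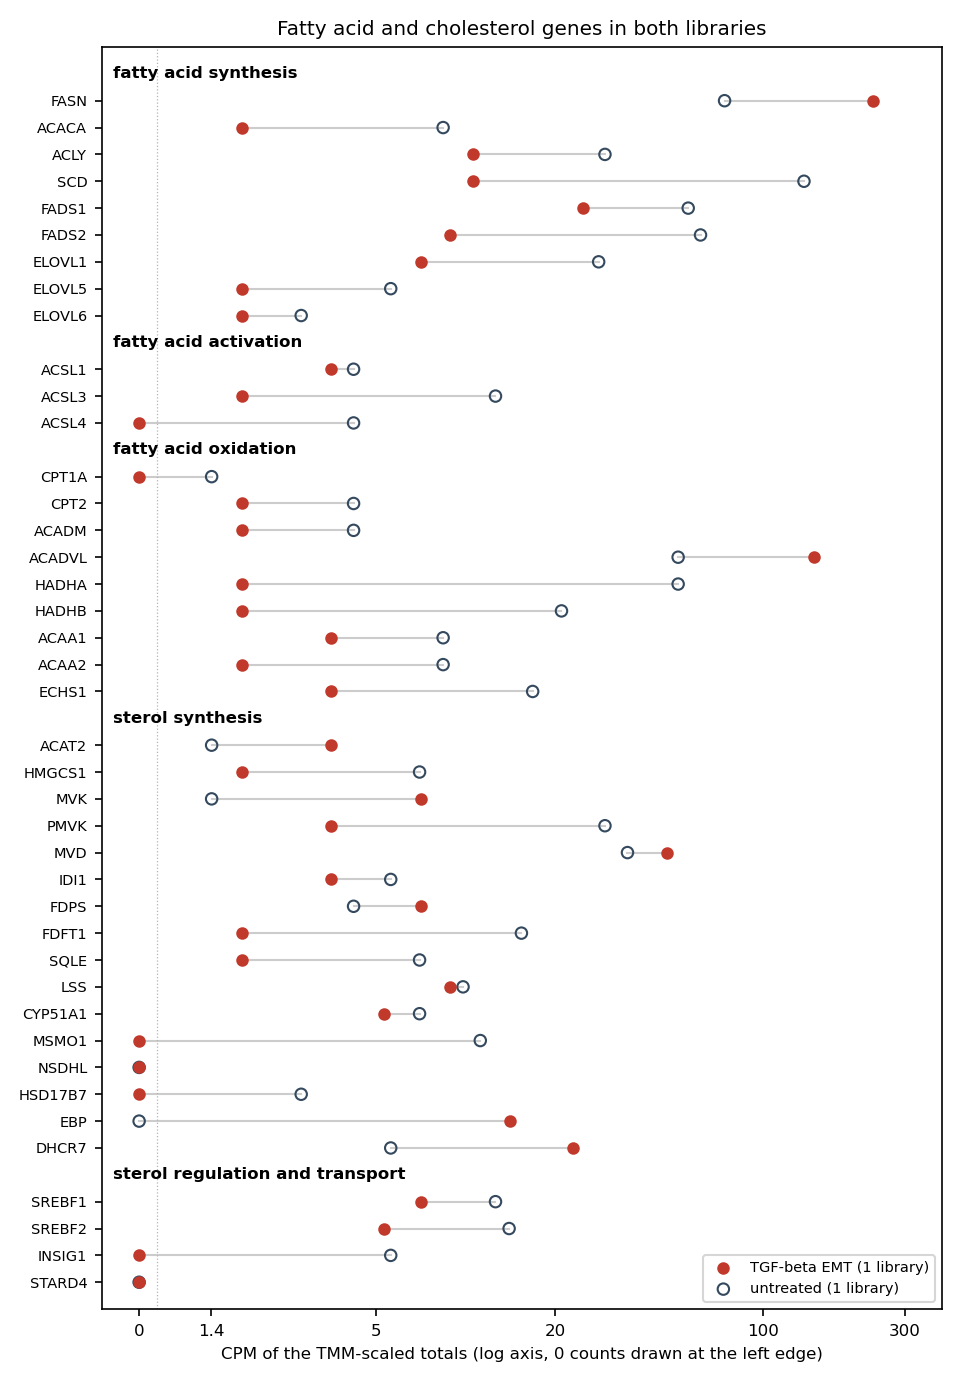
CPM of the TMM-scaled totals (log axis) of all 41 members in the EMT library (filled points) and the untreated library (open points), by class, with 0 counts drawn at the left edge. FASN and ACADVL stand to the right in the EMT library, at 235 and 149 CPM, while most other members lie to the left of their untreated points.

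In fatty acid synthesis, FASN, the synthase that builds palmitate, was higher in the EMT library over the whole gene, with a log2 ratio of 1.66 that turned to -4.25 in the exons most counted in the untreated library. Of the other genes, all 7 that were tested were at least 2-fold lower, the desaturases SCD and FADS2 most of all. ELOVL6 had 1 count in the EMT library and 2 in the untreated library and was not tested. The median log2 ratio of the 8 was -1.83. Among all tested genes 26.7% were lower and 22.0% higher. Of the 7 lower genes 5 had a counting interval wholly below equality.

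FASN (ENSG00000169710, chromosome 17, 80036214 to 80056208, minus strand, hg19) had 133 counts in the EMT library and 53 in the untreated library, or 235 and 74.3 CPM. Its log2 ratio was 1.66, with a counting interval from 1.19 to 2.15. The exon entries of the deposited table, which divide a gene's count over its exons, showed that these counts lay in different places. In the EMT library 106 of the counts, or 79.3%, lay in the fourth exon of the gene, where the untreated library had 7, or 13.2%. In the untreated library the most counted neighbouring exons were 7 and 8, with 24.0 counts between them, and these held 1 count of the EMT library. Restricted to exons 7 and 8 the log2 ratio was -4.25 (counting interval -9.61 to -1.63), and restricted to the most counted exon of the EMT library with its better counted neighbour it was 3.91 (2.93 to 5.07). Each of these stretches was picked by the library that is high in it, so neither value is an unbiased ratio. The direction for FASN depended on which exons were counted, and the part of this shift in its higher level was not tested.

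The exons are printed because the FASN result turns on them. Both are coding, on chromosome 17 and read 5′ to 3′ on the minus strand, with sequence from the GENCODE v29 transcript of the same transcript identifier and exon lengths. The fourth exon is at chr17:80051474-80051647 in hg19, has 174 bases and a GC content of 62.6%. Exons 7 (chr17:80050573-80050688) and 8 (chr17:80050331-80050465) are joined in 1 run of 251 bases with a GC content of 66.1%, and capitals mark the 10 bases on each side of the exon junction.
FASN exon 4: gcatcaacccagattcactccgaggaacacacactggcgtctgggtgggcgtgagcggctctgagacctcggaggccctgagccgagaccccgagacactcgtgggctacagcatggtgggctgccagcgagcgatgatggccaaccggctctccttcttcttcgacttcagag
FASN exons 7 and 8: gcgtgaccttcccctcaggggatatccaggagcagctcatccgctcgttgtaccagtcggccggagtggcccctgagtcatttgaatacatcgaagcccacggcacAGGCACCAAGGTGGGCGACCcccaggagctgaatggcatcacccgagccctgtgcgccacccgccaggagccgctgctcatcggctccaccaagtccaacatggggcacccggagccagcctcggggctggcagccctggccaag

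SCD, the stearoyl-CoA desaturase that makes monounsaturated fatty acids, differed most of the well counted members of the class. It had 6 counts in the EMT library and 98 in the untreated library, or 10.6 and 137 CPM. The log2 ratio was -3.69 (-5.17 to -2.52), a 12.9-fold lower level. Here the libraries were read at the same place, since the first and second exons held 100% of the counts in both libraries. The second exon, which held 3.73 counts of the EMT library and 54.6 of the untreated library, is printed as the segment behind this difference (chr10:102107821-102108103 in hg19, plus strand, 283 coding bases, GC content 49.1%, no part in capitals).
SCD exon 2: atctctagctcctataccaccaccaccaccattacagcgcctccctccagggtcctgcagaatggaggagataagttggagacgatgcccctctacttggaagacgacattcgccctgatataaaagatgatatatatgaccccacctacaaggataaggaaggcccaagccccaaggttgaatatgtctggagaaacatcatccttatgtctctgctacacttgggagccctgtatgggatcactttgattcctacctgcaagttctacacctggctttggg

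The desaturases FADS1 and FADS2, which place double bonds in polyunsaturated fatty acids, are neighbours on chromosome 11. FADS2 had 5 counts in the EMT library against 44 in the untreated library, with a log2 ratio of -2.80 (-4.49 to -1.47). FADS1 had 14 against 40 and a log2 ratio of -1.18 (-2.17 to -0.27). FADS3, a related gene that is not among the members and was named after its values were seen, differed the other way, with 65 counts in the EMT library against 26 and a log2 ratio of 1.66 (0.98 to 2.37). The FADS1 entry lies within the longer FADS2 entry on the opposite strand, and how strand was treated in counting is not stated. The main counts of the untreated library lay apart, with 40.5 counts of FADS2 in an exon beyond the end of the FADS1 entry and 26.9 of FADS1 in an exon between exons of FADS2. Both of these exon regions were at 0 in the EMT library, whose few counts lay in other exons. In the exons most counted in the untreated library FADS1 had 2 counts in the EMT library against 34.0, and a log2 ratio of -3.75 (-6.85 to -1.79). In those most counted in the EMT library it had 6.24 against 1.16, and the log2 ratio turned to 2.92, with an interval from -0.12 to 8.44. These exons too were picked by the library that is high in them, so neither value for FADS1 is an unbiased ratio.

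ACLY, which splits citrate to give acetyl-CoA, had 6 counts in the EMT library and 21 in the untreated library, with a log2 ratio of -1.47 (-3.07 to -0.11). Both libraries were counted mostly over the same neighbouring exons, with 6 counts in the EMT library and 19.0 in the untreated library. ELOVL1, an elongase of saturated and monounsaturated very long chains, had 4 counts against 20 and a log2 ratio of -1.99 (-3.99 to -0.41). ACACA, the carboxylase that makes malonyl-CoA, had 1 count against 6, and ELOVL5, an elongase of polyunsaturated chains, had 1 against 4. The intervals of these last genes reached past equality, to log2 ratios of 0.79 for ACACA and 1.67 for ELOVL5, so no difference was detectable at this depth.

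In fatty acid oxidation 1 well counted enzyme was higher, and the others were lower or too thinly counted. ACADVL, the very long chain acyl-CoA dehydrogenase of the mitochondrial inner membrane, was at least 2-fold higher in the EMT library. HADHA and HADHB, the subunits of the mitochondrial trifunctional protein that carries out the later steps on long chains, were both lower. Of 6 tested genes 5 were at least 2-fold lower and 1 higher, and the median log2 ratio was -2.25. Among all tested genes 26.7% were lower and 22.0% higher. Of the 5 lower genes 3 had a counting interval wholly below equality, and the intervals of ACAA1 and ACAA2 took it in.

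ACADVL (ENSG00000072778, chromosome 17, 7120444 to 7128592, plus strand, hg19) had 84 counts in the EMT library and 37 in the untreated library, or 149 and 51.9 CPM. Its log2 ratio was 1.52 (0.94 to 2.12). The counts were again placed differently along the gene. An exon region of 145 bases held 46.0 counts, or 54.5%, in the EMT library and 8 counts, or 21.5%, in the untreated library. The next region downstream held 16.0 counts of the EMT library and 19.5 of the untreated library, and the last region held 0.333 and 7. In the exon block most counted in the untreated library, which takes in the region of 145 bases and the next one, the log2 ratio stayed above 0 at 1.54 (0.86 to 2.24). In the block most counted in the EMT library it was 3.01 (2.04 to 4.14). Each block was picked by the counts of 1 library, so neither value is an unbiased ratio. ACADVL overlaps DLG4 on the opposite strand in the deposited coordinates. The region of 145 bases is an exon, printed because it holds most of the counts of the EMT library (chr17:7124857-7125001 in hg19, plus strand, GC content 55.9%, no part in capitals).
ACADVL exon: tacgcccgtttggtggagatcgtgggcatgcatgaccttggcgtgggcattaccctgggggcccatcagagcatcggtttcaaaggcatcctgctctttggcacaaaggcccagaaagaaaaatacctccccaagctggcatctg

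HADHA, the subunit with the hydratase and dehydrogenase activities, had 1 count in the EMT library against 37 in the untreated library, or 1.77 and 51.9 CPM. Its log2 ratio of -4.87 (-10.22 to -2.31) was the lowest among the members. HADHB, the thiolase subunit, had 1 count against 15 and a log2 ratio of -3.57 (-8.97 to -0.87). All 37.0 counts of HADHA in the untreated library lay in exons 14 and 15, where the EMT library had 0, and its 1 count lay in another exon. HADHB likewise had 14.2 counts of the untreated library in a pair of neighbouring exon regions with 0 in the EMT library. The HADHA exons are printed as the segment that was read in the untreated library and not in the EMT library (chr2:26420560-26420646 and chr2:26417961-26418101 in hg19, minus strand, 228 bases in all, GC content 48.2%), with capitals for the 10 bases on each side of the junction.
HADHA exons 14 and 15: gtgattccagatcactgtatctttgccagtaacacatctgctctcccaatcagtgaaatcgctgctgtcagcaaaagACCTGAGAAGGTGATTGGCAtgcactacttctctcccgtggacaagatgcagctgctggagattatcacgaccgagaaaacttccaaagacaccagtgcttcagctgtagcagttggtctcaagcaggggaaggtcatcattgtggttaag

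HADHA and HADHB start back to back, and their promoter windows in the RefSeq table (GRCh38.p14) overlap by 194 bases on opposite strands. The HADHA window is printed because the genes share it and were both low in the EMT library (chr2:26244583-26244882, minus strand, 250 bases before to 50 after the start, with the stretch shared with HADHB in capitals).
HADHA promoter: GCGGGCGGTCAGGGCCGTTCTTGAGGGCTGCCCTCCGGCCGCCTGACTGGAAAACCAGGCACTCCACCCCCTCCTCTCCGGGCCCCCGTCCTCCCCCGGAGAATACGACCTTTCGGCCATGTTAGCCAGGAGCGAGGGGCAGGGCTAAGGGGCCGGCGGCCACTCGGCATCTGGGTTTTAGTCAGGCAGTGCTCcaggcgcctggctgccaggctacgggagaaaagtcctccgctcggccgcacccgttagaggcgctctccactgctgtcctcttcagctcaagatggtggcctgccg

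ECHS1, the short chain enoyl-CoA hydratase, had 2 counts in the EMT library and 12 in the untreated library, with a log2 ratio of -2.25 (-5.45 to -0.08). The thiolases ACAA1 of peroxisomes and ACAA2 of mitochondria had 2 against 6 and 1 against 6 counts, with intervals that reached log2 ratios of 1.23 and 0.79. For ACAA2 the exon entries gave a higher untreated count than the gene entry. The exons most counted in the untreated library held 11.5 of its counts and 0 of the EMT library. There the interval reached a log2 ratio of -0.99, in exons picked by the untreated library. The carnitine shuttle could hardly be read. CPT1A, which forms acylcarnitine and sets the rate of entry, had 0 counts in the EMT library and 1 in the untreated library. CPT2, which turns acylcarnitine back into acyl-CoA, and ACADM, the medium chain dehydrogenase, each had 1 count in the EMT library and 3 in the untreated library. These 3 genes were not tested, and a difference in them was not detectable at this depth.

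Among the acyl-CoA synthetases, which activate fatty acids for either route, ACSL3 had 1 count in the EMT library and 9 in the untreated library. Its log2 ratio was -2.83, with an interval from -8.29 to 0.02. ACSL1 had 2 against 3 counts and ACSL4 had 0 against 3, and neither was tested.

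**Figure D2:**
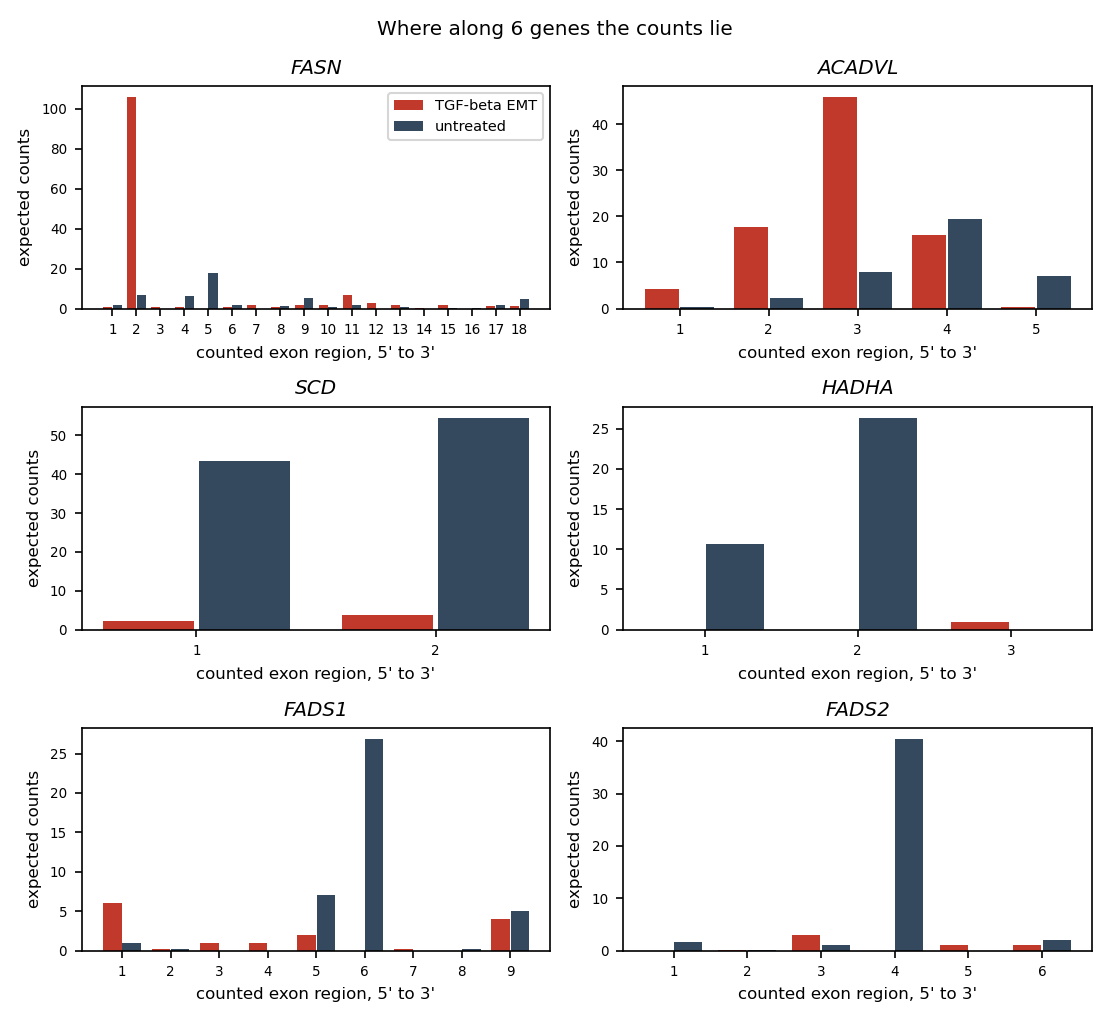
Expected counts (linear axes, a scale for each gene) in each counted exon region of 6 members, from 5′ to 3′, with the EMT library in red and the untreated library in dark blue. SCD was read in the same exons in both libraries, while FASN had 106 counts of the EMT library in its second counted region and the main exon regions of HADHA, FADS1 and FADS2 in the untreated library were at 0 in the EMT library.

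Most genes were read in the same place in both libraries. Among 1487 genes with at least 20 counts in both libraries, 102, or 6.86%, had most counted exon blocks that did not overlap between the libraries, a block being the most counted exon region with its better counted neighbour. Of the 3 members at that depth, FASN had blocks apart, and ACADVL and MVD had overlapping blocks. At 4 or more counts in both libraries, 3 of 11 members (FASN, FADS1 and ELOVL1) had blocks apart, against 17.8% of 7440 genes. The median gene with at least 20 counts in both had 98.7% of its counts in its own block in the EMT library and 98.4% in the untreated library. FASN had 80.0% and 45.4%, and its counts touched 15 exon regions in the EMT library and 12 in the untreated library by more than 0.5 counts.

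Sterol synthesis was mixed. Of 13 tested genes 5 were at least 2-fold lower, 3 at least 2-fold higher and 5 lay between, with a median log2 ratio of -0.40. Among all tested genes 26.7% were lower and 22.0% higher. Of the 3 higher genes MVK had 4 counts in the EMT library against 1 in the untreated library. PMVK, FDFT1 and MSMO1 were lower with intervals that left out equality, and EBP and DHCR7, which act in the last steps, were higher with such intervals.

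In the mevalonate steps, HMGCS1, the synthase that makes the precursor of mevalonate, had 1 count in the EMT library and 5 in the untreated library, with an interval that reached a log2 ratio of 1.17. MVK, the mevalonate kinase, had 4 counts against 1 and a log2 ratio of 2.34 (-1.0 to 7.96), and it overlaps MMAB on the opposite strand. PMVK, the next kinase, had 2 counts against 21 and a log2 ratio of -3.06 (-6.19 to -1.02). MVD, the decarboxylase that follows, was the best counted gene of the class, with 27 counts in the EMT library and 25 in the untreated library, or 47.8 and 35.1 CPM. Its log2 ratio of 0.45 had an interval from -0.39 to 1.29, which took in equality. Of MVK, PMVK and MVD, only PMVK had an interval that left out equality, so opposite directions of neighbouring enzymes were not shown. IDI1, the isopentenyl diphosphate isomerase, had 2 counts against 4, and FDPS, the farnesyl diphosphate synthase, had 4 against 3. ACAT2, the cytosolic thiolase that makes acetoacetyl-CoA, had 2 counts against 1 and was not tested, and in the deposited coordinates it overlaps TCP1 and SOD2 on the opposite strand.

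From squalene onward, FDFT1, the squalene synthase, had 1 count in the EMT library and 11 in the untreated library, with a log2 ratio of -3.12 (-8.55 to -0.34). SQLE, the squalene epoxidase, had 1 against 5, LSS, the lanosterol synthase, had 5 against 7, and CYP51A1, the lanosterol demethylase, had 3 against 5. The intervals of these 3 genes took in equality. MSMO1, the methylsterol monooxygenase, had 0 counts against 8 and was 2.11-fold lower when its 0 was raised to 3 counts. Its counting interval reached nearer to equality, up to a log2 ratio of -0.44, and had no lower limit. NSDHL and HSD17B7, which act beside it in the removal of the methyl groups, had 0 counts in both libraries and 0 against 2.

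EBP and DHCR7 differed in the other direction. EBP, the sterol isomerase, had 8 counts in the EMT library and 0 in the untreated library. It was 3.37-fold higher when the untreated 0 was raised to 3 counts. Its counting interval started lower, at a log2 ratio of 1.11, and had no upper limit. DHCR7, the reductase that completes cholesterol, had 13 counts against 4, or 23.0 and 5.61 CPM. Its log2 ratio was 2.04 (0.34 to 4.11). DHCR7 was read mostly in the same exon block in both libraries, with 77.0% of the counts of the EMT library and 62.5% of those of the untreated library there.

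The regulators were thinly counted. SREBF2, the main activator of sterol genes, had 3 counts in the EMT library and 10 in the untreated library, with a log2 ratio of -1.40 (-3.90 to 0.56). SREBF1, the main activator of fatty acid synthesis genes, had 4 against 9 and a log2 ratio of -0.83 (-2.99 to 1.01). INSIG1, which retains these activators in the endoplasmic reticulum and is itself their target, had 0 against 4. STARD4, a cytosolic carrier of cholesterol, had no count in either library. No difference in these 4 genes was detectable at this depth.

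**Figure D3:**
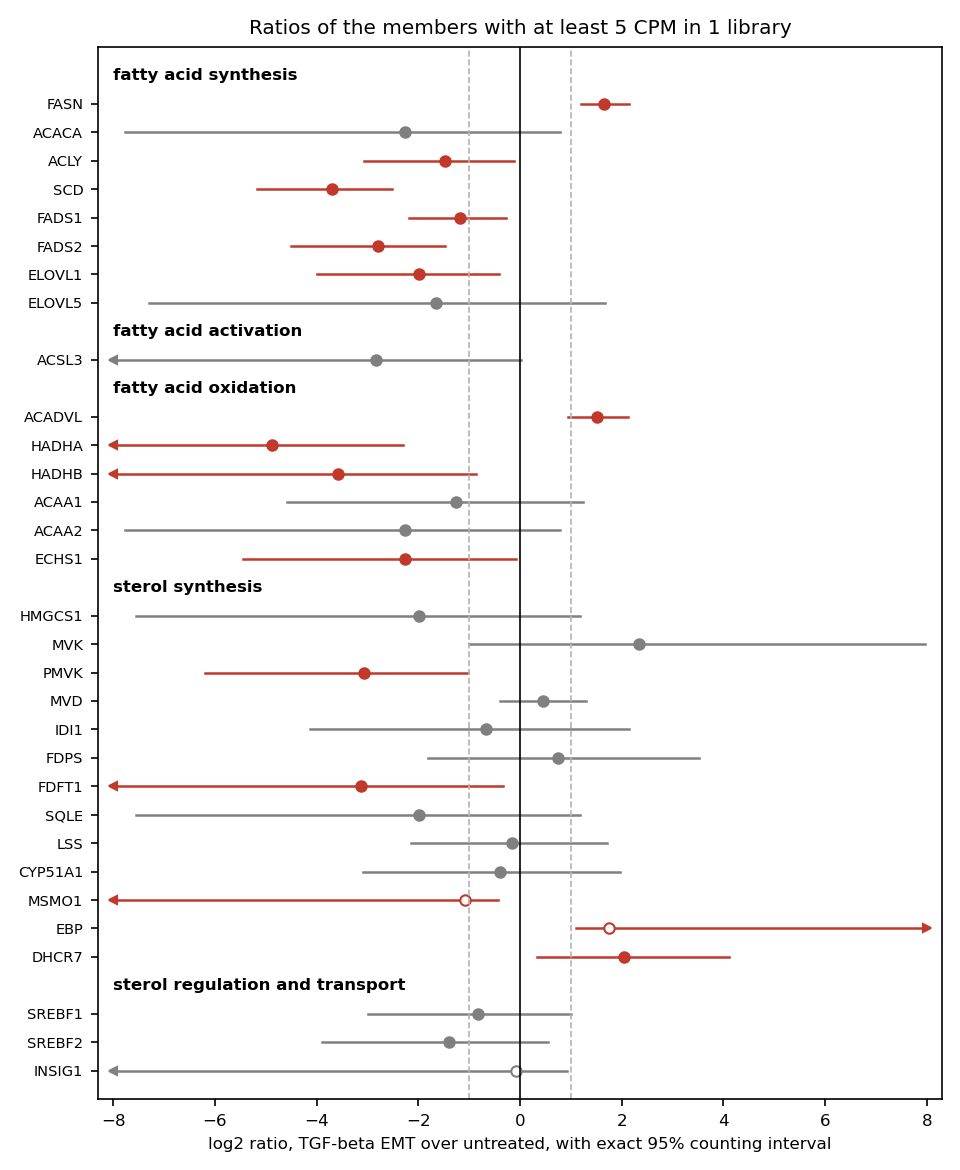
Log2 ratio of the EMT library over the untreated library for the 31 tested members, with exact 95% counting intervals (red where the interval leaves out 0, open points where a 0 was set to the floor, arrows where an interval runs past the axis, dashed lines at 2-fold). FASN, ACADVL, EBP and DHCR7 lie to the right of 0 with their intervals, and HADHA and SCD lie farthest to the left among the well counted members.

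The sums over a class rested on 1 gene in both fatty acid classes. The 9 synthesis genes summed to 171 counts in the EMT library (exact 95% Poisson interval 146 to 199) and 288 in the untreated library (256 to 323), a log2 ratio of -0.42 (-0.70 to -0.14). Without FASN the sums were 38 and 235 counts and the log2 ratio was -2.29 (-2.83 to -1.79). The 9 oxidation genes summed to 93 counts (75.1 to 114) in the EMT library and 120 (99.5 to 143) in the untreated library, with a log2 ratio of -0.03 (-0.44 to 0.37). Without ACADVL the sums were 9 and 83 counts, and the log2 ratio was -2.87 (-4.05 to -1.88). The 16 sterol synthesis genes summed to 73 counts (57.2 to 91.8) in the EMT library and 102 (83.2 to 124) in the untreated library, with a log2 ratio of -0.15 (-0.60 to 0.30), and of -0.41 (-0.97 to 0.14) without MVD. Over all genes of each class, the intervals of the 3 classes overlapped. FASN and ACADVL were the most counted genes of their classes through the EMT library, where they were high, so leaving them out lowers the ratio by construction, and the ratios without them are not compared between classes. The intervals cover counting error alone and do not test a difference between the classes or the treatments.

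**Figure D4:**
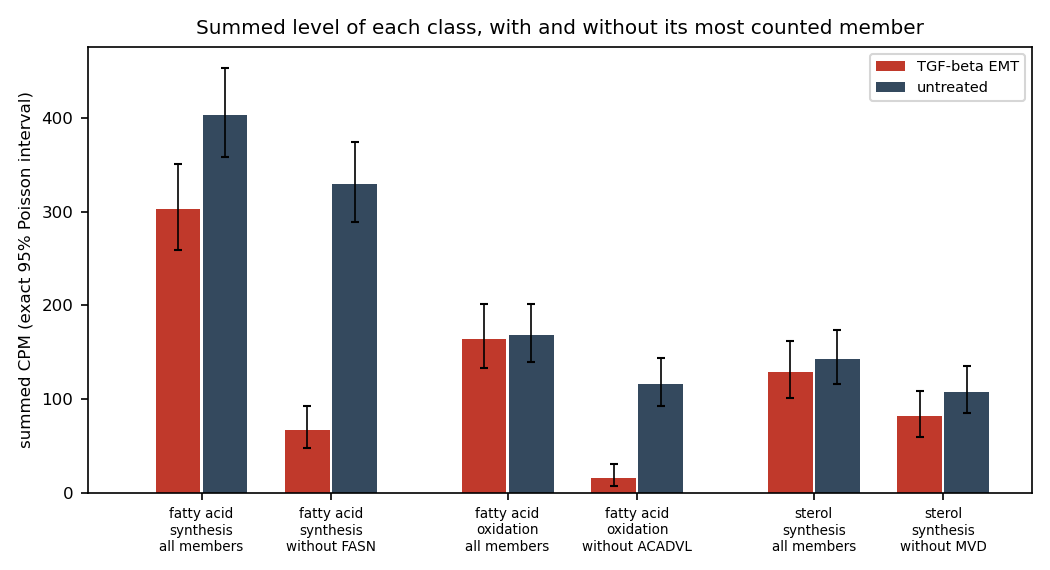
Summed CPM (linear axis from 0, exact 95% Poisson intervals) of fatty acid synthesis, fatty acid oxidation and sterol synthesis in the EMT library (red) and the untreated library (dark blue), over all genes of a class and without its most counted gene. Over all genes, oxidation had 165 CPM in the EMT library and 168 in the untreated library, and leaving out FASN and ACADVL, which were picked through the EMT library, lowers its bars by construction.

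Other genes of the same pathways differed in both directions. Of 31 further oxidation genes 23 were tested, of which 6 were at least 2-fold higher and 4 lower in the EMT library, and their median was 0.49 on the log2 scale. CPT1B, the muscle form of the carnitine transferase, had 14 counts in the EMT library and 1 in the untreated library, with a log2 ratio of 4.14 (1.43 to 9.55). ACOT9, a mitochondrial acyl-CoA thioesterase, had 5 against 19 and a log2 ratio of -1.59 (-3.37 to -0.12). These 31 genes summed to 333 counts in the EMT library and 323 in the untreated library, or 589 and 453 CPM. The log2 ratio of the sums was 0.38 (0.15 to 0.61). The counting interval lay wholly above equality for 4 of the 23 and wholly below it for 2, beside 9.99% and 16.8% of all tested genes. The 6 higher and 4 lower genes lie near the shares of all tested genes, 22.0% higher and 26.7% lower. Of the 6 higher genes 1, ACOX3, had 3 counts against 1.

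Of 21 further synthesis genes 18 were found and 11 tested, with 6 at least 2-fold lower and 3 higher, and their median was -1.25 on the log2 scale. Among all tested genes 26.7% were lower and 22.0% higher. The counting interval lay wholly below equality for 1 of the 11 and wholly above it for 3. TECR, the reductase of the elongation cycle, had 4 counts in the EMT library against 29 in the untreated library and a log2 ratio of -2.52 (-4.49 to -1.01). ELOVL4, an elongase of very long chains, had 19 against 4 and a log2 ratio of 2.58 (0.99 to 4.60). Of 20 further genes of sterol synthesis, uptake and transport 17 were tested, with 6 lower and 3 higher, and their median was -0.32 on the log2 scale, beside 26.7% lower and 22.0% higher among all tested genes. Of the 3 higher genes INSIG2 had 3 counts in the EMT library and 1 in the untreated library. NPC2, which hands cholesterol out of the lysosome, had 3 counts against 84 and a log2 ratio of -4.47 (-6.78 to -2.88), the lowest ratio of that list.

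The promoters of 36 members were in the RefSeq table of 300-base windows (GRCh38.p14). The CCAAT box, which binds NF-Y, a partner of the sterol regulatory element binding proteins, was searched as CCAAT on both strands and occurred in 34.6% of all 35116 windows. It occurred in 10 of 13 windows of sterol synthesis genes, 4 of 8 of fatty acid synthesis genes and 0 of 8 of oxidation genes. The sterol regulatory element was searched as TCACNCCAC on both strands and occurred in 1.13% of all windows and in 1 member, SREBF2. The E-box CACGTG occurred in 7.26% of all windows and in 3 members. Searched motifs are letters in a window, and nothing follows from them about binding in these cells. The window of SCD is printed because SCD had the lowest ratio of the synthesis genes, with its pair of CCAAT boxes in capitals (chr10:100346983-100347282, plus strand).
SCD promoter: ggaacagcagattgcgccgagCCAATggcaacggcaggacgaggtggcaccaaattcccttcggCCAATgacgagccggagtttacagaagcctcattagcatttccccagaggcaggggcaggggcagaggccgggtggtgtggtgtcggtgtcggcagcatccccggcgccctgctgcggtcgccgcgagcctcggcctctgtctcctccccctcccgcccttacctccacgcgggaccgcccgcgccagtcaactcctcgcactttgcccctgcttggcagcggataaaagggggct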

How the data were processed

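Gene expression was measured by targeted RNA sequencing (AmpliSeq Transcriptome kit, 10 ng of total RNA per library, per the labels' protocols) in 2 libraries, 1 per group. The authors deposited unnormalized expected counts, which can be fractional, for 57736 genes, with 196317 transcript and 1195371 exon entries. Coordinates are hg19. The submitters' processing notes list hg19 and DESeq, with no word on what DESeq was used for. Neither the aligner nor the counting program and its handling of strand is given in the sources used here.

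Gene counts were rounded to the nearest whole number, with 0.5 rounded upward. TMM factors from edgeR 4.0.16 (R 4.3.3) were 0.946 for the EMT library and 1.06 for the untreated library. A gene was tested with at least 5 CPM in 1 library and called at 2-fold. A count of 0 was set to a floor of 3 counts, a bound that the exact interval can cross. A gene whose count was 3 or fewer in each library has no printed ratio but enters the tallies over all genes at its floor value. Without such genes 29.2% of 14067 genes were lower and 21.3% higher. For a ratio the exact 95% interval is Clopper-Pearson, given the sum of both counts, and for a sum it is Poisson. Reads carry no molecular identifiers, so both intervals and floors take in no error but that of counting. Overlapping exon entries with more than 0.01 counts were merged into regions. Where genes overlap, exon entries can sum to more than the gene's count. The calculation was tested with SciPy 1.17.1 on simulated counts that varied by counting error alone. Only genes whose counts in both libraries summed to at least 20 were checked, a depth that 10 of the 41 members reached. Thinner genes were not checked.

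All 41 members were named, and of each wider list the highest and lowest gene past 2-fold with at least 20 CPM in 1 library, except 1 gene that is not reported here. Members and lists were chosen with earlier results of these data known. Alternatives were DESeq2 1.42.0 size factors, total counts, upper quartile, other filters, log2(CPM + 1), rounding of 0.5 to the even number and counting within exon blocks, the last 2 chosen after seeing the data.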

Additional observations from a re-analysis of the deposited data

How the results depend on the processing

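With 1 library per group no replicate could be left out. No paired analysis was possible because each group has 1 library. Relative to TMM, a log2 ratio moved by -0.22 under DESeq2 size factors, by -0.16 with totals alone and by 0.08 with the upper quartile, and no called member changed direction. Of 208 alternative values for class counts, medians and sums, 191 stayed within 1.5 times the count or within the counting interval. For a median this was the interval of the gene or genes nearest it, often several log2 units wide, so the limit is loose. Inside it, the activation median moved from -2.83 to -0.25 with no filter, and the oxidation median from -2.25 to -1.25. With at least 20 CPM in 1 library the oxidation median was -3.57 over 3 genes. Within 1.5 times the count, rounding of 0.5 to the even number gave 4 lower and 4 higher sterol synthesis genes, in place of 5 and 3. HMGCS1 then moved from -1.99 to -0.40 and FDPS from 0.75 to 1.34. With at least 20 CPM in 1 library, 12 members were left, 8 lower and 3 higher. That filter left 2 lower oxidation genes, 1 lower and 1 higher sterol synthesis gene, 0 activation genes and 0 genes of regulation and transport, and the sterol synthesis median turned to 0.45 over 3 genes. With no filter or at 1 CPM, 2 oxidation genes were higher, because CPT1A with 0 counts against 1 was placed at the floor. Under DESeq2 size factors and log2(CPM + 1), 2 genes of regulation and transport were lower. The summed log2 ratio of all members was -0.54 with DESeq2 size factors and -0.87 without FASN. That of oxidation, -0.03, turned to 0.05 with upper quartile scaling, and was -2.87 without ACADVL, and that of synthesis was -2.29 without FASN. Counted in the exon block of the untreated library, FASN turned to -4.25, and counted in that of the EMT library, FADS1 turned to 2.92 and ACADVL moved to 3.01. Each block was picked by the counts of the library it is named for, so these values are not unbiased ratios. Depth limits most members to large differences: with 1 or 2 counts in the EMT library, an interval spans several log2 units.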

Other observations

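Genes of glycerolipid synthesis and lipid droplets handle the storage of the fatty acids that the members make or burn. Of 22 genes 18 were tested, with 8 lower and 2 higher by 2-fold or more in the EMT library and a median log2 ratio of -0.57. Among all tested genes 26.7% were lower and 22.0% higher, and 3 of the 18 had a counting interval wholly below equality. Their counts summed to 206 in the EMT library and 338 in the untreated library. PLIN2, the coat protein of lipid droplets, had 1 count in the EMT library against 43 in the untreated library, with a log2 ratio of -5.09 (-10.43 to -2.54). LPIN1, the phosphatidate phosphatase that was the best counted gene of the list, had 52 counts against 59 and a log2 ratio of 0.15, with a lower limit of -0.41. It was picked after its values were seen. These values come from 1 library per group and have no replicate check.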
